A study of Homo sapiens with 17 samples.

Results

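The genes of the proteasome were taken from the count table by symbol, as all rows that read PSMA, PSMB, PSMC, PSMD, PSME, PSMF or PSMG followed by a number, which gave 48 of 23368 genes on 17 chromosomes. Their transcripts were counted in polyadenylated RNA from HEK293T, a line of human embryonic kidney origin. In acRIP-seq, an antibody against N4-acetylcytidine (ac4C), an acetylated form of the base cytidine, captures RNA that is then sequenced. The 6 groups were WT input, WT anti-ac4C pull-down (IP) and WT pull-down with control immunoglobulin G (IgG), and the same 3 fractions of cells given siRNA against TDP43 (siTDP43), with 3 libraries each except for WT IgG, which had 2. The labels name no control siRNA for the WT cells, so the siRNA treatment itself, the loss of TDP43 and any other difference between the WT and the siTDP43 cells cannot be told apart, and they do not say whether the libraries of a group came from separate cultures, so p-values measure only the spread between these libraries.

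The proteasome is the protease that degrades ubiquitin-tagged proteins in all cells. Its 20S core is a barrel of alpha rings, which gate the entry, around beta rings, of which the subunits encoded by PSMB5, PSMB6 and PSMB7 carry the active sites. The 19S regulatory particle caps the barrel: its base holds the ATPases PSMC1 to PSMC6, which unfold the substrate, and its lid removes ubiquitin. PSMB8, PSMB9 and PSMB10 encode the interferon-inducible active sites of the immunoproteasome, PSME1 to PSME4 encode alternative activators, PSMF1 encodes an inhibitor, and PSMG1 to PSMG4 and PSMD5, PSMD9 and PSMD10 encode chaperones that assemble the particles without remaining in them. Proteasome genes are known to respond together to the transcription factor NFE2L1, which acts through antioxidant response elements.

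Libraries held 3013989 to 36583436 counts, with the fewest in siTDP43 IgG and the most in WT input. The 48 genes together took 1.20% ± 0.00926 (SD, n = 3) of all counts in WT input and 1.59% ± 0.0205 (n = 3) in siTDP43 input. In the pull-downs their share was 0.728% ± 0.0150 (n = 3) in WT IP, 0.914% ± 0.00600 (n = 2) in WT IgG, 1.40% ± 0.0137 (n = 3) in siTDP43 IP and 1.21% ± 0.0122 (n = 3) in siTDP43 IgG. TARDBP, which encodes TDP43, was at 150, 157 and 151 CPM (counts per 1000000, with library sizes scaled by TMM over all 17 libraries) in WT input and at 98.7, 102 and 106 CPM in siTDP43 input, a log2 fold change of -0.57 (SE 0.0451, adjusted p = 6.55e-13, edgeR), with no overlap of the groups. It did not pass a test against a fold change of 1.5 (adjusted p = 0.542), and with a GC trend removed from each library its log2 fold change was -0.98. An exact two-sided permutation test of those 6 CPM values gave p = 0.1, the smallest that 3 libraries against 3 allow. All 6 marker genes of HEK293T cells were detected in both inputs, although LHX1 and INA reached at most 2.46 CPM there, and their sum was 139 to 150 CPM in WT input and 237 to 247 CPM in siTDP43 input. They split into 3 that were higher in siTDP43 input (NEFL, from 65.2 to 186 CPM on average, EYA1 and INA) and 3 that were lower (NEFM, from 66.1 to 41.8 CPM, SALL1 and LHX1). The 8 markers of blood, liver and fibroblasts summed to 5.09 to 6.95 CPM in WT input, 2.33 to 3.41 CPM in siTDP43 input, 13.9 to 23.2 CPM in the WT pull-downs and 15.7 to 31.6 CPM in the siTDP43 pull-downs. CD68 held most of the sum in both inputs, at 4.51 CPM on average in WT input and 2.11 CPM in siTDP43 input. It averaged 11.4 CPM in WT IP and 10.3 CPM in siTDP43 IP. APOA1 averaged 1.12 CPM in WT input and 10.6 CPM in WT IP, and reached 21.3 CPM in siTDP43 IgG. PTPRC, a blood marker, stayed at 0 except in 1 WT IgG library. HBB was at 0 except in the siTDP43 pull-downs, where it stood at 0.747 to 2.23 CPM in IP and 7.12 to 9.71 CPM in IgG. Per the study's methods, a mouse beta-globin RNA holding ac4C, made in vitro, was added to the RNA before the pull-down. Whether the HBB counts came from it was not tested. The part of these markers in the results was not tested.

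Of the 48 genes, 45 passed the filter on low counts in the inputs. PSMB11, the thymus-specific active site, had no count in any library. PSMA8, the testis alpha subunit, had at most 2 counts. PSMB8 had 6, 0 and 4 counts in WT input, 18, 12 and 8 in siTDP43 input and 0 in every pull-down. The exons of PSMB8 and PSMB9 are listed both on chromosome 6 and on 7 alternative haplotypes, and whether reads were lost there, as they would be from unique alignments to an index with those haplotypes, was not tested. PSMB8 also overlaps an antisense gene over 2296 bases. Shorter overlaps with an antisense gene were found for PSMB7 (389 bases), PSMC5 (105 bases) and PSME1 (6 bases), and no source used here says whether counting was by strand.

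Levels of different genes were compared per kilobase of exon. In WT input the highest was PSMB1, a beta subunit without an active site, at 767 ± 18.9 CPM per kb (SD, n = 3). PSMA7 followed at 642 ± 22.1 CPM per kb and PSMB3 at 513 ± 8.08 CPM per kb, each step exceeding the spread of the libraries. At the low end of the genes tested, PSMB9 at 4.46 ± 0.472 CPM per kb could not be ordered against PSMD5 at 4.26 ± 0.142 and PSME4 at 4.0 ± 0.0829 CPM per kb beyond its spread. The ATPases of the base, which sit side by side in 1 ring, spanned 48.1 CPM per kb for PSMC2 to 154 CPM per kb for PSMC3 in WT input and 103 to 232 CPM per kb, for the same genes, in siTDP43 input. In siTDP43 input PSMB1 was again highest at 1340 ± 59.1 CPM per kb, and PSMA4 came next at 798 ± 35.2 CPM per kb, ahead of PSMA7 at 684 ± 26.3 CPM per kb.

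The comparison of the inputs asked which transcripts changed in abundance with siTDP43. Most genes of the particle itself rose. Of the 5 genes of the activators and the inhibitor 2 rose and 2 fell. Of the 4 chaperones of the 20S core 1 rose and 2 fell, and of the 3 of the 19S particle 2 rose and 1 fell. The shares that fell were thus 40%, 50% and 33.3%, beside 40.6% of all genes tested. Of 45 genes tested, 31 were higher in siTDP43 input, against 38.6% of all genes tested, and 8 were lower, against 40.6%, at an adjusted p under 0.05 (edgeR, two-sided, adjusted over all 14036 genes). Their median log2 fold change was 0.37, beside -0.05 for all genes tested. When a GC trend was removed from each library, 28 were higher and 15 lower. A test against a fold change of 1.5 left 13 higher and 4 lower. In bulk RNA, fewer cells with a transcript and less transcript per cell cannot be told apart.

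**Figure D1:**
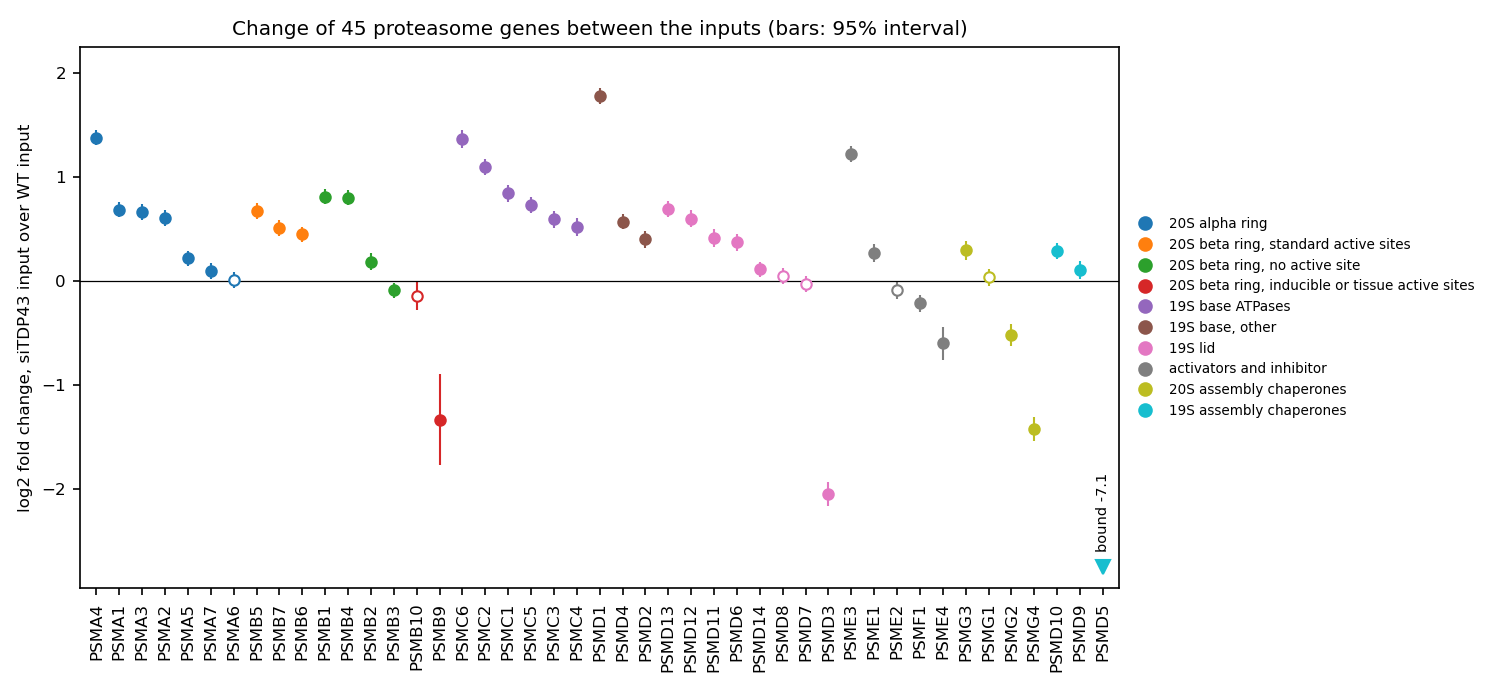
Log2 fold change of siTDP43 input over WT input for the 45 proteasome genes tested, grouped by role (colour) and ordered within it; bars are 95% intervals, filled circles were called at an adjusted p under 0.05 and open circles were not, and the triangle marks PSMD5, which lies below the axis and has only a bound. All 6 ATPases of the base and all 3 standard active sites lie above 0, while PSMD3, PSMG4 and PSMB9 lie below -1.

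In the alpha ring 6 of 7 genes rose, with a median log2 fold change of 0.61. PSMA4 rose most: it was at 369, 374 and 385 CPM in WT input and at 938, 965 and 1022 CPM in siTDP43 input, 2.60-fold (log2 1.38, SE 0.0385, adjusted p = 2.82e-24). All siTDP43 inputs lay above all WT inputs. PSMA1, PSMA3 and PSMA2 rose by log2 0.69, 0.66 and 0.61, and PSMA5 and PSMA7 by 0.22 and 0.10, the last with overlapping groups. PSMA6 was at 448 CPM in WT input and 450 CPM in siTDP43 input on average and was not called, with a 95% interval of the log2 fold change from -0.07 to 0.09.

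All 3 standard active sites rose. PSMB5, the chymotrypsin-like site, was at 518, 499 and 495 CPM in WT input and 778, 777 and 843 CPM in siTDP43 input (log2 fold change 0.67, SE 0.0382, adjusted p = 2.21e-16). PSMB7, the trypsin-like site, and PSMB6, the caspase-like site, rose by log2 0.51 and 0.45. The groups overlapped for none of the 3, and the share of such genes over all genes was not computed. Among the beta subunits without an active site, PSMB1 rose from 703 to 1229 CPM on average (log2 0.81) and PSMB4 from 286 to 497 CPM (log2 0.80), PSMB2 rose by log2 0.19, and PSMB3 fell by 0.09 on the log2 scale with an adjusted p of 0.0285 (edgeR), a call that several other settings did not keep.

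The inducible sites did not follow the standard ones. PSMB9 stood at 4.96, 4.96 and 4.10 CPM in WT input and 2.37, 1.27 and 1.84 CPM in siTDP43 input, a log2 fold change of -1.33 (SE 0.222, adjusted p = 2.97e-06) with no overlap. PSMB10 was at 38.9 and 35.2 CPM on average, log2 fold change -0.14, and missed the threshold (adjusted p = 0.0621). With a GC trend removed from each library its log2 fold change was 0.44. PSMB8 was too low to be tested.

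All 6 ATPases of the 19S base rose, with a median log2 fold change of 0.79. PSMC6 was at 118, 125 and 126 CPM in WT input and 304, 323 and 323 CPM in siTDP43 input, 2.58-fold (SE of log2 0.0431, adjusted p = 6.16e-23). PSMC2 rose by log2 1.10, PSMC1 by 0.84, PSMC5 by 0.73, PSMC3 by 0.59 and PSMC4 by 0.52. The 3 other base subunits with PSM symbols rose as well, and subunits with other symbols are given below. PSMD1, a large scaffold of the base, had the largest rise of the 45 genes, from 113, 108 and 107 CPM to 365, 374 and 383 CPM, 3.43-fold (log2 1.78, SE 0.0416, adjusted p = 3.23e-26). PSMD4, a ubiquitin receptor, rose by log2 0.57 and PSMD2, a scaffold, by 0.40.

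The lid was mixed. Of its 8 genes 5 rose, with PSMD13 at log2 0.70, PSMD12 at 0.60, PSMD11 at 0.41, PSMD6 at 0.37 and PSMD14, the deubiquitinase, at 0.11. PSMD8 and PSMD7 were not called. PSMD3 fell further than any other structural subunit: it was at 90.2, 89.1 and 90.2 CPM in WT input and 21.6, 21.8 and 21.6 CPM in siTDP43 input, 24.2% of the WT level (log2 fold change -2.05, SE 0.0589, adjusted p = 6.19e-24). The 3 libraries of each group lay close together and far from those of the other group.

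Among the regulators, PSME3, the nuclear activator, rose from 190, 197 and 195 CPM to 439, 458 and 457 CPM, 2.33-fold (log2 1.22, SE 0.0391, adjusted p = 8.42e-23). Its relatives PSME1 and PSME2, the interferon-inducible pair, had log2 fold changes of 0.27 (adjusted p = 1.09e-06) and -0.08 (adjusted p = 0.0776). PSME4, the activator known from chromatin and the testis, fell by 0.60 on the log2 scale and the inhibitor PSMF1 fell by 0.21.

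The assembly chaperones went both ways. Of the 4 of the 20S core 2 fell and 1 rose, and of the 3 of the 19S particle 1 fell and 2 rose. Of all genes tested 40.6% fell and 38.6% rose. PSMG4 was at 87.9, 94.7 and 86.6 CPM in WT input and 34.2, 34.6 and 31.5 CPM in siTDP43 input, 37.4% of the WT level (log2 fold change -1.42, SE 0.0591, adjusted p = 7.94e-20). PSMG2 fell by 0.52 on the log2 scale, whereas PSMG3 rose by log2 0.30 and PSMG1, with which PSMG2 pairs in the core chaperone, was not called. The base chaperones PSMD10 and PSMD9 rose by log2 0.29 and 0.11.

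PSMD5, the remaining base chaperone, had almost no counts in the siTDP43 libraries. It had 442, 545 and 518 counts in the WT inputs and 2, 0 and 0 counts in the siTDP43 inputs, at least 135-fold lower when 3 counts per library are taken as the floor (adjusted p = 1.78e-21). In every library 81.3% to 95.9% of counts from 1 to 20 were even, so both mates of a pair may have been counted, and a floor of 3 counts, here and in the bounds that follow, may stand for fewer fragments. It had 136, 124 and 88 counts in WT IP and none in any siTDP43 IP library. The genes next to it in the table were looked up after this value had been seen. LOC253039, a gene on the opposite strand whose start is separated from that of PSMD5 by 113 bases, had 59, 72 and 71 counts in the WT inputs and 0 in every siTDP43 library. The next genes outward moved the other way or were not called: FBXW2 rose by log2 1.23 (SE 0.0599) and PHF19 by 0.70 (SE 0.0806), while LOC100288842 had 27 to 69 counts in WT input and 37 to 74 in siTDP43 input (adjusted p = 0.258). The counts near 0 thus covered a divergent gene pair with a common start region, PSMD5 at hg19 chromosome 9, 123578332 to 123605206 on the minus strand, and LOC253039 at 123605320 to 123616651 on the plus strand. Whether the WT and siTDP43 cells differed at this locus, or as cell stocks, before the siRNA was not tested, which bears on every difference between them. The sequence between both gene starts (GRCh37, chr9:123605207-123605319, plus strand) is shown because it is the only stretch between these transcripts. The match of PSMD5 to the antioxidant motif described next lies just outside this stretch, 134 bases before the PSMD5 start. The stretch itself holds 65.5% G and C and neither a CCAAT box nor that motif, so no letters are capitalised:

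PSMD5 to LOC253039: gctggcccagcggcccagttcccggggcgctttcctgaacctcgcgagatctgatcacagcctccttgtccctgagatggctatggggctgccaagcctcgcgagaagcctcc

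**Figure D2:**
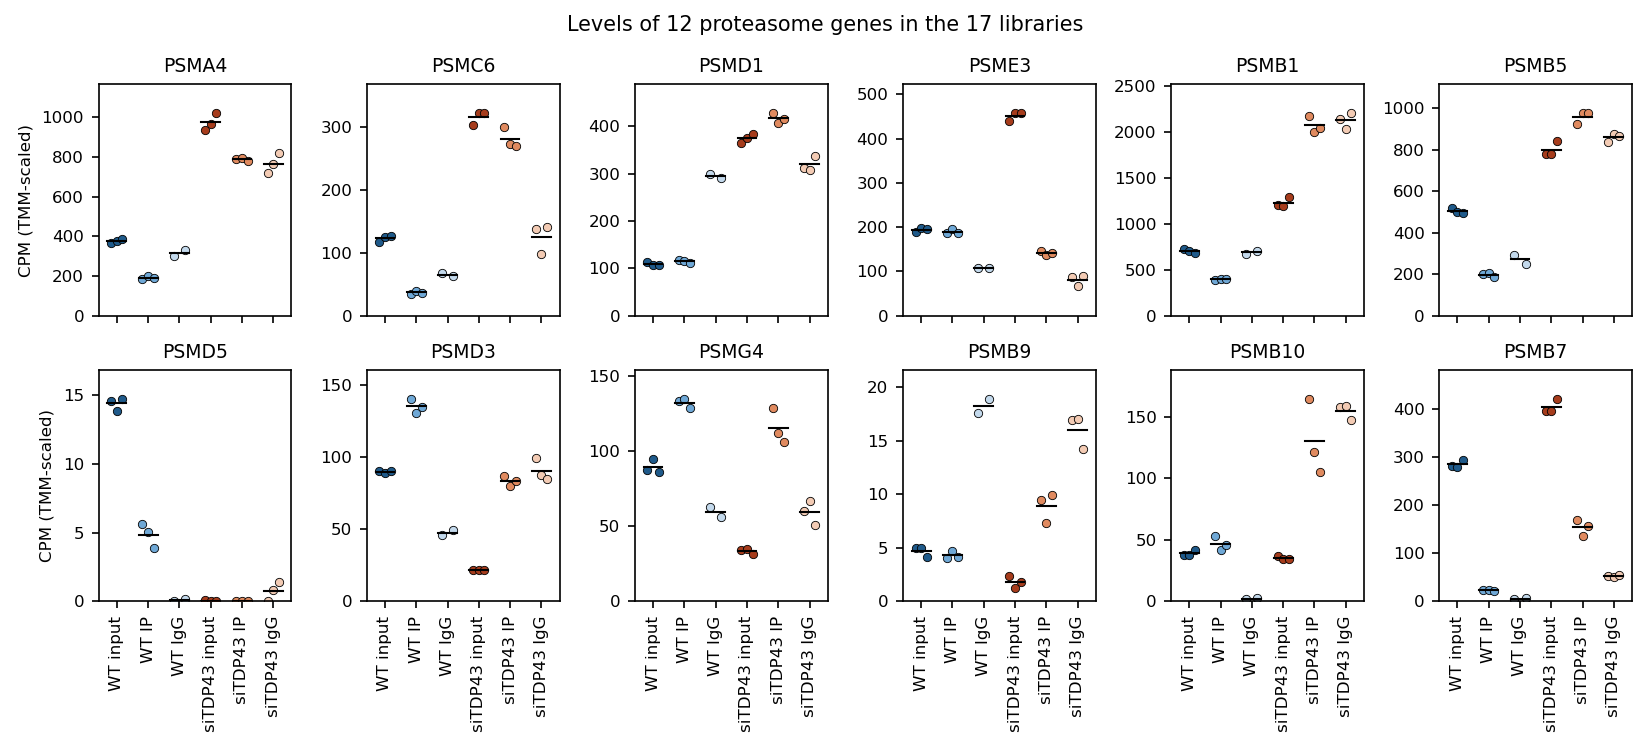
CPM (TMM-scaled over all libraries, linear axes from 0) of 12 proteasome genes in each of the 17 libraries; points are libraries, black lines are group means, blue marks WT and orange siTDP43. PSMA4, PSMC6, PSMD1 and PSME3 are higher in every siTDP43 input than in any WT input, PSMD5 is near 0 in every siTDP43 library, and PSMB10 is near 0 in WT IgG alone.

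Since proteasome genes are known to be controlled together, the 250 bases before each gene start were searched on both strands for the core of the antioxidant response element, TGACNNNGC (RefSeq promoter windows, GRCh38.p14, which list 42 of the 48 genes in 51 windows). It was present in 13 of the 51 windows, 25.5%, and in 10.9% of all 35116 windows. Of the genes that were lower in siTDP43 input 6 of 8 had it, and of those that were higher 5 of 25 with a window had it. This is a count of letters in short windows and no test was made. The matches of PSMA4, which rose most among the core subunits, and of PSMD3, PSMD5 and PSMB9, which fell most among the genes with a match, are shown with 20 bases on each side (5′ to 3′ along the gene, capitals mark the match, on either strand), to let the motif be compared between genes that went opposite ways:

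PSMA4 (chr15:78540640-78540688, plus strand): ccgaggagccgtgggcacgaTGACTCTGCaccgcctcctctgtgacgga
PSMD3 (chr17:39980750-39980798, plus strand): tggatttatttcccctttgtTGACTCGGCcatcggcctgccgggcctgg
PSMD5 (chr9:120843028-120843076, minus strand): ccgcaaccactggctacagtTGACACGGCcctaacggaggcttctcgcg
PSMB9 (chr6:32854024-32854072, plus strand): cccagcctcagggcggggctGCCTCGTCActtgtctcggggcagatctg

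The PSMA4 match lies 126 bases before the start, that of PSMD3 37, that of PSMD5 134 and that of PSMB9 148 bases, the last on the opposite strand. The interferon-stimulated response element, GAAANNGAAA, was present in 5 windows, 9.80%, and in 3.02% of all windows. Of the genes with a window it was held by 2 of the 25 that were higher in siTDP43 input, 1 of the 8 that were lower and 2 of the 6 that were not called. All 5 matches are shown, with up to 20 bases on each side, so that PSMB10 and PSME2, which interferon induces, can be set beside the others:

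PSMB10 (chr16:67936851-67936891, minus strand): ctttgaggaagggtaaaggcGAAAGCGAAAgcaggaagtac
PSME2 (chr14:24146611-24146658, minus strand): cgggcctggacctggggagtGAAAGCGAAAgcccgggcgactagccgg
PSMA4 (chr15:78540155-78540194, plus strand): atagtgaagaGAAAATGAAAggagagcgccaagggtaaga
PSMB4 (chr1:151399485-151399534, plus strand): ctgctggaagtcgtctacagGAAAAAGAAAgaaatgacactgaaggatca
PSMG4 (chr6:3258894-3258943, plus strand): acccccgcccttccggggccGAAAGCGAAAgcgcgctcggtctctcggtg

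The gamma-activated sequence, TTCNNNGAA, was found in 13.7% of the members' windows and 6.57% of all, and CCAAT in 37.3% and 32.0%. The NFE2L1 transcript itself, looked up after its value was seen, was lower in siTDP43 input, at 12.2 CPM on average beside 18.7 CPM in WT input and a log2 fold change of -0.61, and its relative NFE2L2 was not called. NGLY1, which processes the NFE2L1 protein, rose from 66.5 to 126 CPM (log2 0.93), the only rise among 7 genes for these transcription factors and their processing, of which 4 were lower.

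Most genes around the proteasome in the pathway were lower. Of 26 partner genes under other symbols (ubiquitin genes, shuttle factors, deubiquitinases, transcription factors and further subunits), 7 were higher and 17 lower in siTDP43 input, which is 26.9% and 65.4% beside 38.6% and 40.6% of all genes tested, with a median log2 fold change of -0.47 beside -0.05. UBA1, which encodes the ubiquitin-activating enzyme, was lower at a log2 fold change of -0.96. Both subunits that carry other symbols, ADRM1 and SHFM1, were lower as well, at -0.74 and -0.86. The largest change was that of VCP, the unfoldase that hands substrates to the proteasome, which was at 140, 134 and 134 CPM in WT input and 573, 552 and 536 CPM in siTDP43 input, 4.09-fold (log2 2.03, SE 0.0408, adjusted p = 8.27e-28). MAFK fell by 1.38 and MAFF by 1.24 on the log2 scale, both from low levels of at most 1.88 and 6.11 CPM in WT input. Of 14 genes of antigen processing, which uses the peptides that the proteasome makes, 2 were higher (ERAP2, log2 1.21, and TAPBP, 1.18) and 8 lower, which is 14.3% and 57.1% beside the same shares of all genes, with a median of -0.37. ERAP2 and TAPBP were low as well, at most 4.99 and 9.39 CPM in siTDP43 input. HLA-B fell by 1.25 and HLA-C by 0.80 on the log2 scale, in genes that share sequence with each other.

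The WT pull-downs asked which transcripts carried ac4C, taken as an IP level over 2-fold above both input and IgG at an adjusted p under 0.05. No proteasome gene met this in either genotype: 0 of 45 in WT, where 15.6% of all genes did, and 0 of 44 in siTDP43, where 10.3% did. In siTDP43 1 gene, PSMG4, met it when libraries were scaled by total counts or a GC trend was removed. In WT IP over WT input, 0 genes were higher, against 30.2% of all genes tested, and 19 were lower, against 27.3%. PSMG3, PSMD3 and PSMG4 came highest at log2 0.83, 0.60 and 0.57, below the required fold. With a GC trend removed 1 gene, PSME4, was higher. The median over the 45 genes was -0.78, beside 0.01 for all genes. In the alpha ring 5 of 7 genes were lower, with a median of -1.90, and in the lid 4 of 8. The control pull-down gave the same counts. In WT IgG over WT input 5 of 7 alpha ring genes were lower, with a median of -1.38, and 4 of 8 of the lid. Of all genes tested 36.6% were lower there, with a median of -0.39. In WT IP over WT IgG, 0 of 7 alpha ring genes and 3 of 8 of the lid were lower, against 17.8% of all genes.

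PSMB7 had the lowest IP level relative to input. It stood at 281, 279 and 294 CPM in WT input and at 22.8, 24.4 and 22.5 CPM in WT IP, a log2 fold change of -3.61 (SE 0.0689, adjusted p = 3.40e-23). PSMG2 was lower by log2 -2.61, PSMA2 by -2.48, PSMC2 by -2.44 and PSMA6 by -2.23. Across the 45 genes, the log2 fold change of WT IP over input rose with the share of G and C in the exons (Spearman rho 0.53, and 0.36 over all genes tested). All points of this correlation come from the same 6 libraries, and the part of base composition in the result was not tested beyond the GC alternative.

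PSMB10, PSMD5 and PSMB7 stood furthest above the IgG pull-down. In WT IP over WT IgG, 7 genes were higher, against 35.2% of all genes, and 9 lower, against 17.8%, with a median of -0.23 beside 0.29 for all genes. PSMB10 was highest among the genes with a measured IgG level: it was at 52.9, 41.4 and 46.2 CPM in WT IP and at 1.94 and 2.68 CPM in WT IgG, 20.1-fold (log2 4.33, SE 0.187, adjusted p = 8.21e-16), while WT input was at 37.6 to 41.7 CPM. PSMD5 was at least 16.2-fold higher in IP, with 0 and 2 counts in WT IgG. PSMB7, PSMC2 and PSMD3 were higher by log2 2.20, 1.56 and 1.49 (2.18 for PSMC2 without WT IgG replicate 1), and PSMF1 and PSMG4 by 1.20 and 1.13. Of these, PSMB7 and PSMC2 were themselves among the genes most reduced in IP relative to input. PSMB9 was the lowest, at 4.09, 4.73 and 4.17 CPM in IP and 17.6 and 18.9 CPM in IgG (log2 -2.09, SE 0.190, adjusted p = 5.93e-10), and PSMD14, PSMB3, PSMD10 and PSMD1 followed at -1.60, -1.57, -1.39 and -1.38.

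In WT IgG over WT input, where no antibody to ac4C was used, 5 genes were higher, against 24.4% of all genes, and 18 lower, against 36.6%, with a median of -0.84 beside -0.39. The genes that were higher were PSMB9 (log2 1.99), PSMD1 (1.46), PSMD7 (1.44), PSMD11 (1.17) and PSMG3 (1.01, not over 2-fold with several other settings). The falls were steep for PSMB7, at -5.80 or 4.07 and 5.97 CPM in IgG, for PSMB10 at -4.05, for PSMC2 at -4.0 and for PSMF1 at -2.20. PSMD5 was at least 48.1-fold lower.

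**Figure D3:**
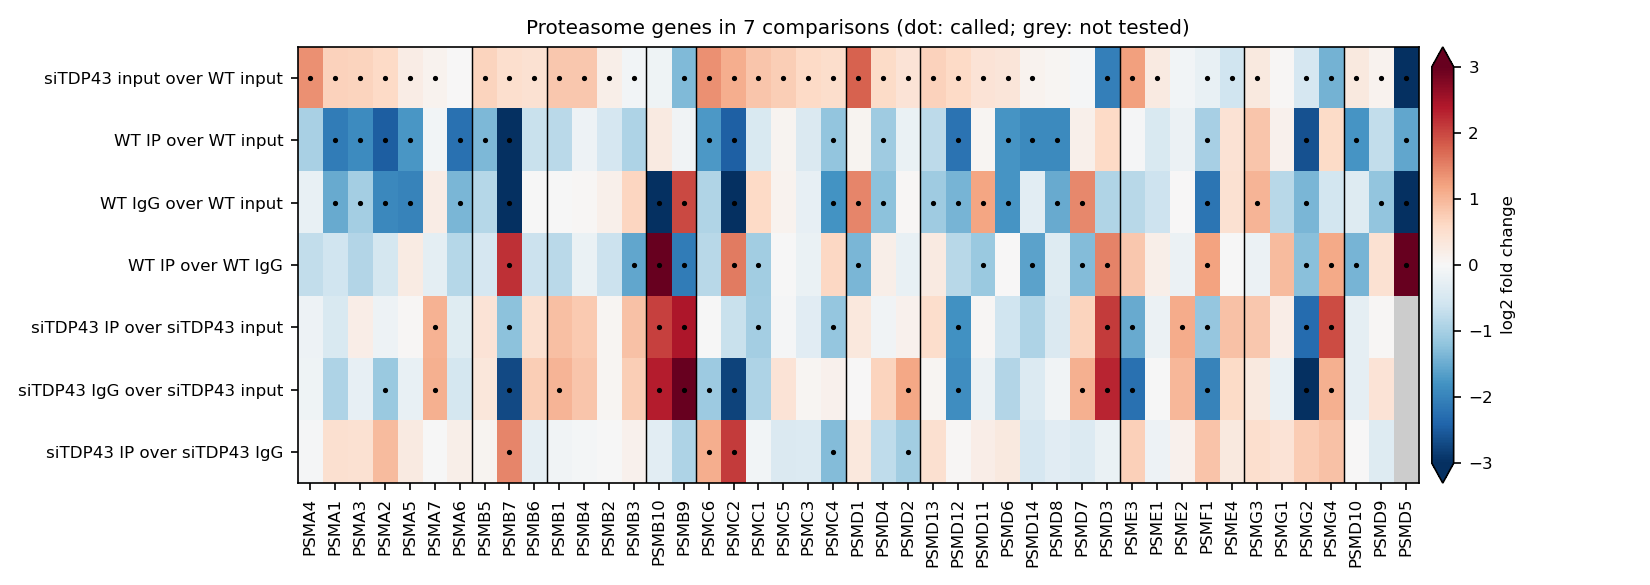
Log2 fold changes of the proteasome genes (columns, grouped by role with lines between roles) in 7 comparisons (rows); red is higher and blue lower in the first-named group, colours end at 3 either way, dots mark calls and grey marks PSMD5 where it was not tested; its colours elsewhere are fitted values, bounded by counts near 0 in some groups. Of the 7 genes of the alpha ring 5 are called lower in WT IP over input (27.3% of all genes tested). In siTDP43 IP over input none are (25.4% of all), and in WT IgG over input 5 of the 7 are (36.6% of all).

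In siTDP43 cells 44 genes were tested, since PSMD5 was too low. In siTDP43 IP over siTDP43 input, 6 genes were higher, against 26.8% of all genes tested, and 7 lower, against 25.4%, with a median of 0.03 beside -0.09 for all genes. Scaling by total counts gave 4 higher and 9 lower and a median of -0.31 beside -0.43, and removing a GC trend gave 8 higher and 5 lower and a median of 0.30 beside -0.01. The folds come from a fit scaled over the siTDP43 libraries, so they differ slightly from ratios of the CPM values, which were scaled over all 17. PSMB9 was highest (log2 2.43, SE 0.287), at 9.51, 7.29 and 9.97 CPM in IP and 1.27 to 2.37 CPM in input. PSMD3 (2.10), PSMB10 (2.05), PSMG4 (1.95), PSME2 (1.12) and PSMA7 (1.04) were also higher, the last not over 2-fold with several other settings. The genes that were lower were PSMG2 (-2.31), PSMD12 (-1.83), PSME3 (-1.51), PSMB7 (-1.24), PSMC4 (-1.17), PSMF1 (-1.16) and PSMC1 (-1.01).

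Few genes separated IP from IgG in the siTDP43 cells. In siTDP43 IP over siTDP43 IgG 3 genes were higher, PSMC2 (log2 2.10, SE 0.0928), PSMB7 (1.47) and PSMC6 (1.08, or 0.72 with a GC trend removed), against 34% of all genes tested, and 2 were lower, PSMC4 (-1.29) and PSMD2 (-1.03), against 15%. The median was 0.07 beside 0.33 for all genes, and the log2 fold changes of the 44 genes had an SD of 0.640, beside 1.15 in WT IP over WT IgG. Scaling by total counts gave 6 higher and 1 lower. PSMC2, 1 of the ATPases, stood at 185, 190 and 182 CPM in IP and 38.9, 38.0 and 45.9 CPM in IgG. Without siTDP43 IgG replicate 2 the only lower gene was PSMC4. In siTDP43 IgG over siTDP43 input, 8 genes were higher, against 24.7%, and 8 lower, against 41%, with a median of 0.02 beside -0.58. PSMB9 (3.34), PSMB10 (2.36) and PSMD3 (2.29) led the rises, before PSMD2 (1.17) and PSMD7 (1.07), and PSMG2 (-3.07), PSMC2 (-2.78), PSMB7 (-2.71), PSME3 (-2.24) and PSMF1 (-2.01) the falls. Total count scaling left 3 higher, PSMB9, PSMB10 and PSMD3, and 12 lower, and moved the median of all genes from -0.58 to -1.13, while removing a GC trend gave 9 higher and 6 lower and a median of 0.35 beside -0.48. Across the 44 genes this change rose with exonic G and C (Spearman rho 0.64, over all genes 0.25), a correlation over genes of the same 6 libraries.

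**Figure D4:**
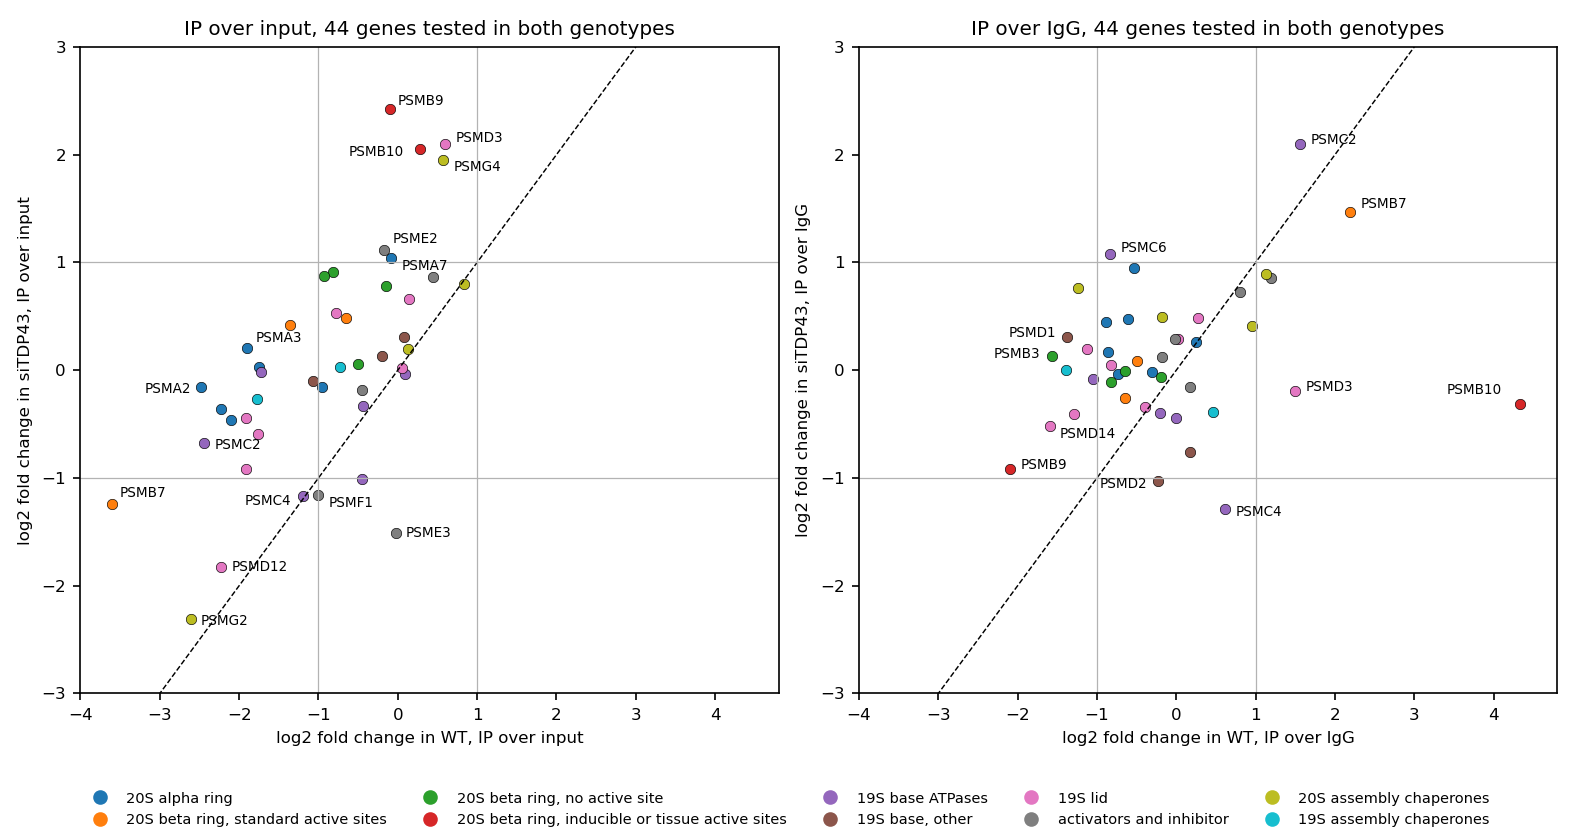
Log2 fold change in siTDP43 (vertical) against WT (horizontal) for the 44 proteasome genes tested in both genotypes, as IP over input (left) and IP over IgG (right); each point is a gene coloured by role, grey lines mark 2-fold and the dashed line equal change. On the left 38 of the 44 genes lie above the dashed line, a count that was not made over all genes. On the right most siTDP43 values lie between -1 and 1.

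The difference between the genotypes was tested as an interaction over all 17 libraries. The change of IP over input was higher in siTDP43 for 30 of 45 genes, against 31.5% of all genes tested, and lower for 4, against 36.3%, with a median of 0.85 beside -0.19 for all genes. Total count scaling gave 27 and 10 and a median of 0.55 beside -0.48. Each comparison shares its inputs with the comparison of the inputs given before. The control pull-down differed between the genotypes as well. The median of IgG over input was -0.84 beside -0.39 for all genes in WT, and 0.02 beside -0.58 in siTDP43. The change of IP over IgG, given below, had a median of 0.36 beside 0.24. The part of the IgG difference in the change of IP over input was not tested. The genes that were higher took in all tested genes of the 20S rings: all 7 genes of the alpha ring, with a median of 1.64, all 3 standard active sites, all 4 beta subunits without an active site and both inducible sites tested. In the lid 7 of 8 genes were higher, but of the ATPases only PSMC2 and PSMC6, while PSMC1 and PSMC5 were lower.

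PSMA2, an alpha subunit, had 1 of the largest changes. It was at 568, 563 and 567 CPM in WT input and 105, 98.1 and 100 CPM in WT IP, and at 795, 862 and 919 CPM in siTDP43 input and 701, 707 and 667 CPM in siTDP43 IP, a change in enrichment of log2 2.17 (SE 0.0871, adjusted p = 1.34e-22). WT IP lay below WT IgG (154 and 135 CPM), while siTDP43 IP lay above siTDP43 IgG (319, 340 and 362 CPM). PSMA3 and PSMA6 likewise went from below to above IgG on average. PSMB9 IP stayed below IgG in both genotypes, at 4.33 and 18.2 CPM in WT and 8.92 and 16.0 CPM in siTDP43. PSMB7 IP stayed above IgG, at 23.2 and 5.02 CPM in WT and 154 and 52.8 CPM in siTDP43. The change in enrichment over input was also higher for PSMB9 (2.38), PSMB7 (2.22), PSMA3 (1.95) and PSMA6 (1.73). PSME3 went the other way: it was at 190 to 197 CPM in WT input and 186 to 195 CPM in WT IP, but at 439 to 458 CPM in siTDP43 input and 138 to 146 CPM in siTDP43 IP, a change of log2 -1.63 (SE 0.0955, adjusted p = 1.54e-17). PSMC1, PSMF1 and PSMC5 had smaller changes of -0.71, -0.30 and -0.27.

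The change of IP over IgG was higher for 26 genes, against 34.9% of all genes tested, and lower for 11, against 25.9%, with a median of 0.36 beside 0.24. DESeq2's size factors gave 21 and 15 and a median of 0.14 beside 0.03. PSMG2 (2.05), PSMC6 (1.97), PSMB3 (1.76), PSMD1 (1.74) and PSMA2 (1.54) had the largest rises, of which PSMC6 stood at 1.08 and PSMA2 at 0.78 with a GC trend removed. PSMB10 had the largest measured fall, -4.58 (SE 0.255, adjusted p = 5.08e-18): it was at 165, 122 and 105 CPM in siTDP43 IP and at 158, 159 and 148 CPM in siTDP43 IgG, beside the 2 WT IgG libraries near 0. PSMC4 (-1.85), PSMD3 (-1.63) and PSMD4 (-0.87) followed. PSMD5 also passed the threshold as lower, but with no count in siTDP43 IP its size has no measured value.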

How the data were processed

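HEK293T poly(A) RNA was measured in 17 libraries, grouped by their titles. Per the study's methods, SMART-seq2 libraries were trimmed with Trim Galore 0.6.7, aligned to hg19 with STAR 2.7.10a and counted per gene from unique alignments with featureCounts 2.0.2. The deposited table holds raw counts, which the authors left without normalization, and no source used here gives the annotation release or says how strand and mates were treated. Counts are of reads without molecular identifiers. Intervals reflect the spread between these libraries, and floors cover counting error only.

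Tests used edgeR 4.0.16 under R 4.3.3 (quasi-likelihood F test, two-sided, TMM, filterByExpr with a minimum count of 10, Benjamini-Hochberg over all genes tested). The inputs were fitted over 6 libraries, WT over 8, siTDP43 over 9 and the interactions over 17. Calls needed an adjusted p under 0.05, and for enrichment a fold change over 2. A group with at most 3 counts in every library was taken as at the floor. The tests were also tried on simulated data. The members and the gene lists were chosen with earlier results of these data known. Named genes were the active sites, the activators and the inhibitor, the 8 largest rises and falls among calls between the inputs, the 5 largest of each in other comparisons at a mean of at least 100 counts, every member not tested and the 4 largest changes of each other list; further members are named within their role, after their values were seen. Some results for single partner genes are not reported here. Alternatives were DESeq2 1.42.0, its size factors, total count scaling, other filters, halved counts, a GC trend removed (6 spline degrees of freedom), all 17 libraries in 1 fit, glmTreat at a fold change of 1.5, the replicate number as a block and leaving out each library.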

Additional observations from a re-analysis of the deposited data

Results flagged for a closer look

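Results in which the genotypes differed under the same contrast, by the interaction test over 17 libraries (edgeR, adjusted p under 0.05), were as follows. The change of IP over input in siTDP43 minus that in WT was 2.38 for PSMB9, 2.22 for PSMB7, 2.17 for PSMA2, 1.95 for PSMA3 and 1.73 for PSMA6, and -1.63 for PSME3, -0.71 for PSMC1, -0.30 for PSMF1 and -0.27 for PSMC5 (log2). The change of IP over IgG was 2.05 for PSMG2, 1.97 for PSMC6, 1.76 for PSMB3, 1.74 for PSMD1 and 1.54 for PSMA2, and -0.87 for PSMD4, -1.63 for PSMD3, -1.85 for PSMC4 and -4.58 for PSMB10. Groups of 3 libraries were not tested for libraries that stand apart.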

How the results depend on the processing

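Among values of single named genes under other settings, 1644 kept their direction and their side of the threshold, 48 no longer passed it, 9 newly passed it and 1 changed direction, PSMB10 between the inputs, at log2 0.44 with a GC trend removed. Between the inputs, testing against a fold change of 1.5 left 13 genes higher and 4 lower, and TARDBP, at log2 -0.57, no longer passed. Removing the GC trend gave 15 lower between the inputs, 1 higher in WT IP over input, 1 lower in siTDP43 IP over IgG and 1 ac4C(+) gene in siTDP43. Total count scaling gave 10 lower in the change of IP over input, 3 higher in siTDP43 IgG over input, 6 higher and 1 lower in siTDP43 IP over IgG and 1 ac4C(+) gene in siTDP43. Fitting all 17 libraries together gave 4 higher in siTDP43 IgG over input. The causes were not tested. Against TMM, total count scaling moved the median of all genes by -0.34 in siTDP43 IP over input and by -0.55 in siTDP43 IgG over input.

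Leaving out each library in turn gave 29 to 31 higher and 7 to 9 lower genes between the inputs, with TARDBP at -0.60 to -0.54. It gave 1 to 3 lower genes in siTDP43 IP over IgG, with 1, PSMC4, left without siTDP43 IgG replicate 2, and 3 to 5 lower genes in the change of IP over input. Other counts stayed within 1.5 times.

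Libraries of the same number did not deviate together (r from -0.021 to 0.027, none over 0.1). This cannot exclude a shared preparation, because libraries of a group that came from the same culture would differ by noise alone. With the replicate number as a block, 31 genes were higher and 8 lower between the inputs, 26 higher and 10 lower in the change of IP over IgG, and TARDBP was at -0.57, and no call of a named gene changed. Depth limits the siTDP43 IgG libraries most, which held the fewest counts.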
